A study of Mus musculus with 10 samples.

Results

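The 8 genes described here encode defence proteins that lung epithelium secretes: the lysozymes Lyz1 and Lyz2, the antimicrobial and antiprotease proteins Lcn2 and Slpi, the chitinase-like protein Chil1, the chemokine Cxcl15, the alarmin Il33 and the galectin-binding glycoprotein Lgals3bp. They were chosen by name, as the rows of the deposited table whose Ensembl identifiers map to these symbols. All 8 were found among 16154 genes, and all 8 passed the filter on low values, their lowest value in any library being 26.0 normalized counts per M (M for mega, the deposited values scaled by the average library total of 7.14 M). The choice was made with earlier results on the same 10 libraries in view, the comparison of knockout with wild type among them. Their levels and that comparison are therefore given as a description, with p-values adjusted over the whole table and never over the 8 genes.

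The libraries were made from polyA RNA of sorted alveolar type II (AT2) cells of C57BL/6 mice aged 8 to 10 weeks, 5 labelled wild type (replicates 2 to 6) and 5 labelled HOIL-1L knockout (replicates 1 to 5). The genotype label of the knockouts is HOIL-1L -/-, while the design text names CreSPC/HOIL-1Lfl/fl mice, in which Cre driven from the surfactant protein C promoter would act in AT2 cells. Which of these applies is not settled by the labels. HOIL-1L, encoded by Rbck1, is a subunit of the linear ubiquitin ligase LUBAC. Each title has a mouse number of its own, so that the libraries were taken as separate mice. The numbers fall into 2 runs, the first with wild type 2 and 3 and knockout 1 to 3, the second with wild type 4 to 6 and knockout 4 and 5.

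AT2 cells make surfactant and are also part of the innate defence of the alveolus. They release enzymes that break bacterial cell walls, proteins that withhold iron or inhibit proteases, and signals that call in or alert immune cells. Many such genes are switched on by NF-kB, STAT3, C/EBP factors or interferon, and LUBAC is best known for its role in NF-kB signalling downstream of cytokine and pattern-recognition receptors.

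Several facts of the libraries bear on all results. Rbck1 went against the label in 2 libraries: it stood at 29.7 per M in wild type 2, against 56.1 to 57.8 in wild type 3 to 6, and at 59.3 in knockout 1, against 29.8 to 38.8 in knockout 2 to 5. Throughout, wild type 2 and knockout 1 mean the libraries labelled so, and every direction by genotype label rests on those labels. By Xist and Y-linked genes, wild type 2, knockout 2 and knockout 3 came from females and the other 7 libraries from males, and all 3 females were in the first run. The depth behind the values was roughly 7.69 to 13.2 M reads. The AT2 label held against markers other than the 8 genes: all 11 AT2 markers were tested, and their summed level was 184433 to 221140 per M. Summed macrophage and monocyte markers (12 of 14 with a row) stood at 20.9 to 43.5 per M, with Adgre1 at 0 to 1.06, Marco at 0 to 1.25 and Siglecf at 0 to 1.46, and Csf1r at 9.67 to 16.5. Only 5 of them passed the filter on low values. Of 8 neutrophil markers only Cxcr2 had a row, at 0 to 0.211 per M, and the others were not analysed here. Markers of club cells, airway secretory cells that also make Slpi, summed to 4915 to 9638 per M. Those of alveolar type I cells summed to 2084 to 2726 per M, with Ager at 1542 to 2209.

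The 8 genes together made up 4.96% to 6.40% of each library's total, and they differed widely in level and in spread. Per kb of exon, Lyz2 was the second most abundant gene of the whole table, at 26495 per M per kb, and Cxcl15 (4508), Chil1 (2221) and Lyz1 (2109) followed with ranks of 10, 18 and 19. Lcn2 (275 per M per kb) and Il33 (166) ranked 103 and 192. Slpi and Lgals3bp, at 33.5 and 19.5 per M per kb, were the lowest of the set, with ranks of 1088 and 1916. The spread over the 10 libraries differed too. The coefficient of variation was 9.33% for Il33, 9.89% for Cxcl15, 12.5% for Lyz2 and 15.5% for Chil1, and 25.6% for Lyz1, 35.8% for Lcn2, 41.3% for Slpi and 44.2% for Lgals3bp. The highest library exceeded the lowest by 3.13-fold for Slpi and by 1.28-fold for Cxcl15.

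**Figure D1:**
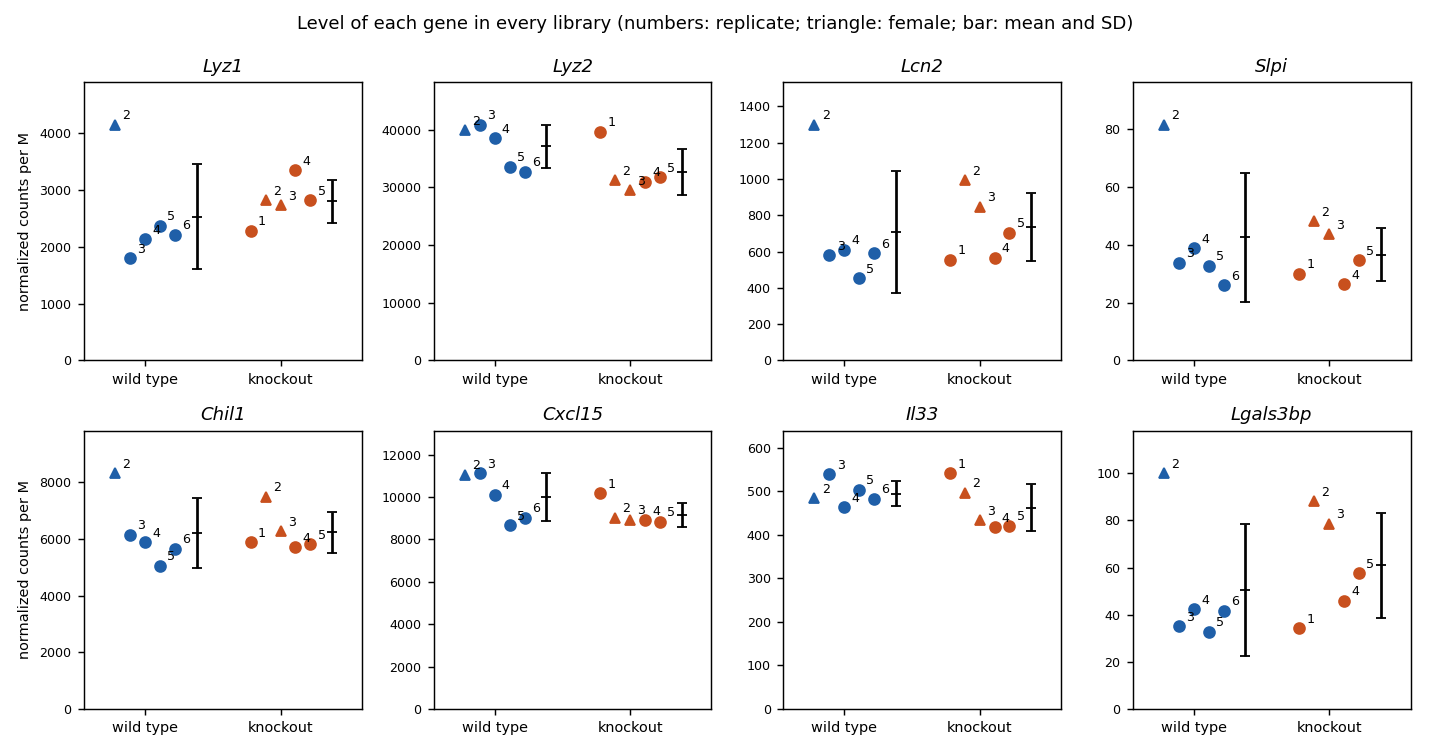
Normalized counts per M (vertical axes, from 0) of the 8 genes in every library, grouped by label, with the replicate number beside each point, triangles for females and the mean ± SD of each label group to its right. Wild type 2 is the highest library for Lyz1, Lcn2, Slpi, Chil1 and Lgals3bp, and for no gene are the 2 label groups apart.

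The lysozymes cleave the peptidoglycan of bacterial cell walls. The mouse has a pair of neighbouring genes, Lyz1 (ENSMUSG00000069515, chromosome 10, 117287797 to 117292868, minus strand, 4 exons, mm10) and Lyz2 (ENSMUSG00000069516, chromosome 10, 117277331 to 117282321, minus strand, 4 exons). Lyz2 is the lysozyme of macrophages and AT2 cells, and Lyz1 is best known from Paneth cells of the gut. Their reading frames have the same length of 447 bases and differ at 22 of them. The first 300 bases, which hold 20 of these differences, are shown. The frames are only a part of the transcripts, which have 1263 bases for Lyz1 and 1316 for Lyz2. Reads from outside the frames can therefore tell the pair apart as well. Capitals mark the bases at which they differ (GENCODE M21 transcripts, 5′ to 3′).
Lyz1: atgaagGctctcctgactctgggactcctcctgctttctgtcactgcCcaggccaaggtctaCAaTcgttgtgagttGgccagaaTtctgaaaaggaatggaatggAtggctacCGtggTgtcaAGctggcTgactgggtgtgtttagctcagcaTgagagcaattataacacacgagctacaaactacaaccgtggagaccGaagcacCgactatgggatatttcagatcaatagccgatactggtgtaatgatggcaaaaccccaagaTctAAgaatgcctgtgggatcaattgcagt
Lyz2: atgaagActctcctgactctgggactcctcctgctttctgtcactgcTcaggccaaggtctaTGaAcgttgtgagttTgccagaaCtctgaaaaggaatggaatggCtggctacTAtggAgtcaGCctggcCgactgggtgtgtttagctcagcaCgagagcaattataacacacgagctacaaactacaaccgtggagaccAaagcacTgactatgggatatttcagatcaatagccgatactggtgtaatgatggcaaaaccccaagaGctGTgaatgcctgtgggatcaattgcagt
Of all stretches of 50 bases in the Lyz1 transcript 16.1% occur without a change in the Lyz2 transcript, and of those of 100 bases 2.06%. How the authors' counting treated reads that fit both genes is not given in the sources used here, so that a part of the Lyz1 signal may be shared with its far more abundant neighbour, and its level is uncertain to that extent.

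The pair is also alike just before the RefSeq start. In the 100 bases nearest to the RefSeq start sites (GRCm38.p6, minus strand) the 2 genes differed at 8 positions. These bases are chr10:117292869-117292968 for Lyz1 and chr10:117282273-117282372 for Lyz2, again with differences in capitals. Those of Lyz2 lie in part inside the GENCODE gene, which reaches to 117282321, as the RefSeq start lies within it.
Lyz1: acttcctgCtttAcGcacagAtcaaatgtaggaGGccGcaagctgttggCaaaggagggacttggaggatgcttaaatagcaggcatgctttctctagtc
Lyz2: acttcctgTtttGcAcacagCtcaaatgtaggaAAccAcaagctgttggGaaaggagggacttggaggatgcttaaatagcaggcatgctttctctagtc
The levels of the 2 genes lie an order of magnitude apart.

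Lyz2 stood at 39931, 40837, 38480, 33601 and 32706 per M in wild type 2 to 6 and at 39659, 31182, 29537, 30957 and 31783 per M in knockout 1 to 5. Wild type 2 to 4 and knockout 1 formed the upper part of this range, so that the label groups overlapped through knockout 1. Lyz1 stood at 4144, 1796, 2128, 2367 and 2209 per M in wild type 2 to 6 and at 2281, 2819, 2732, 3343 and 2816 per M in knockout 1 to 5. Wild type 2 was the highest of all libraries, wild type 3 the lowest, and knockout 1 lay within the range of wild type 3 to 6.

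The share of Lyz1 in the sum of both lysozymes combined the 2 levels, so that a higher Lyz1 and a lower Lyz2 both raised it. It was 9.40% in wild type 2 and 4.21%, 5.24%, 6.58% and 6.33% in wild type 3 to 6, and 5.44% in knockout 1 and 8.29%, 8.47%, 9.75% and 8.14% in knockout 2 to 5. By label the means were 6.35% ± 1.95 and 8.02% ± 1.58 (SD, n = 5 each), and without wild type 2 and knockout 1 they were 5.59% ± 1.09 and 8.66% ± 0.736 (SD, n = 4 each). The libraries with a low Rbck1, whatever their label, had the high Lyz1 shares, as the plot of Lyz1 against Rbck1 shows. This grouping by Rbck1 was made after the data were seen, and every female falls on its low side. How many of all genes separate in the same way was not counted. Knockout 4 and 5 are male and of the second run, as are wild type 4 to 6, and lay above them for Lyz1 by level and by share. The sum of macrophage markers was 42.6, 43.5 and 42.4 per M in wild type 2, knockout 2 and knockout 3, the 3 highest of all libraries, 21.5 and 22.2 in knockout 4 and 5, and 20.9 to 39.4 in wild type 3 to 6 and knockout 1. Its part in the Lyz1 share was not tested.

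**Figure D2:**
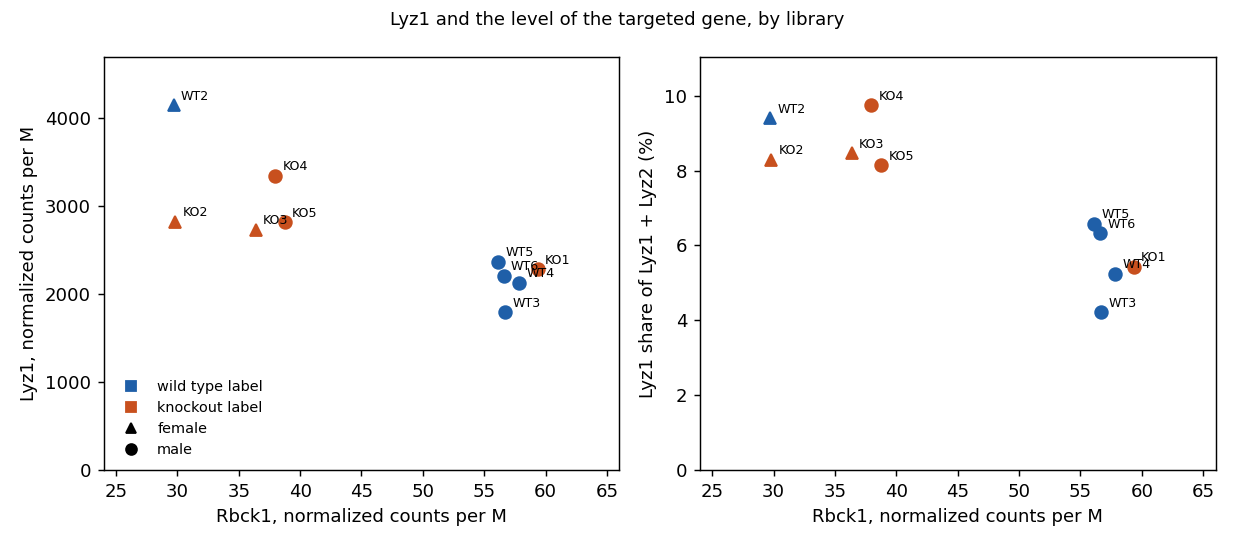
Lyz1 in normalized counts per M (left) and as a percentage of Lyz1 plus Lyz2 (right) against Rbck1 in normalized counts per M, 1 point per library, coloured by label with triangles for females. Wild type 2 lies with knockout 2 to 5, at 8.14% to 9.75% Lyz1 share, and knockout 1 with wild type 3 to 6, at 4.21% to 6.58%.

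Lcn2, or lipocalin 2 (ENSMUSG00000026822, chromosome 2, 32384633 to 32388252), binds bacterial siderophores and so withholds iron. It stood at 1299, 579, 611, 452 and 592 per M in wild type 2 to 6 and at 556, 995, 848, 566 and 705 per M in knockout 1 to 5. The 3 female libraries were the highest, at 848 or more, and every male library was at 705 or less. Slpi, the secretory leukocyte protease inhibitor (ENSMUSG00000017002, chromosome 2, 164354070 to 164389095), protects the airway from neutrophil elastase. It stood at 81.4, 33.8, 38.8, 32.7 and 26.0 per M in wild type 2 to 6 and at 29.9, 48.0, 43.7, 26.2 and 34.7 per M in knockout 1 to 5. The females were again on top, although knockout 3 (43.7) exceeded the highest male, wild type 4, by little. Slpi is also made by club cells. The sum of club markers was 4915 per M in wild type 2, 9551 in knockout 2 and 7455 in knockout 3, beside 5134 to 9638 in the 7 males, and their part in the Slpi level was not tested.

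Chil1 (ENSMUSG00000064246, chromosome 1, 134182176 to 134190181), also called BRP-39, is related to chitinases but lacks their activity. It stood at 8328, 6159, 5887, 5052 and 5653 per M in wild type 2 to 6 and at 5891, 7490, 6267, 5717 and 5825 per M in knockout 1 to 5. Wild type 2 and knockout 2 stood above the rest, and the third female, knockout 3, was next to wild type 3. Lgals3bp (ENSMUSG00000033880, chromosome 11, 118392751 to 118402092) encodes a secreted scavenger-receptor glycoprotein that binds galectins and is known as interferon-induced. It stood at 100.1, 35.1, 42.2, 32.7 and 41.6 per M in wild type 2 to 6 and at 34.2, 88.2, 78.6, 45.8 and 57.6 per M in knockout 1 to 5. The females held the 3 highest values, and among the 7 males the 2 with low Rbck1, knockout 4 and 5, were above wild type 3 to 6 and knockout 1. This grouping of the males was made after the data were seen, and how many of all genes separate in the same way was not counted.

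Cxcl15, or lungkine (ENSMUSG00000029375, chromosome 5, 90794534 to 90803067), is a neutrophil chemoattractant of lung epithelium. It stood at 11065, 11132, 10105, 8676 and 9032 per M in wild type 2 to 6 and at 10174, 9028, 8938, 8900 and 8833 per M in knockout 1 to 5. Its order resembled that of Lyz2, with wild type 2 to 4 and knockout 1 on top. Il33 (ENSMUSG00000024810, chromosome 19, 29925114 to 29960718) encodes interleukin 33, a nuclear cytokine that is set free by damaged cells and acts on innate lymphoid cells. It stood at 485, 540, 464, 504 and 483 per M in wild type 2 to 6 and at 542, 497, 434, 418 and 422 per M in knockout 1 to 5. Knockout 3 to 5 were the lowest and knockout 1 the highest, and the label groups overlapped.

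By label, none of the 8 genes passed the test between knockout and wild type. The whole table gave 0 calls in 12946 genes (0%), with limma and an adjusted p of 0.05, and 1227 had an unadjusted p under 0.05. The fitted log2 fold changes of the 8 genes were 4 above and 4 below 0, and their median was -0.04, beside 0.01 over all genes. The largest was that of Lgals3bp, with group means of 50.3 ± 28.1 and 60.9 ± 22.4 per M in wild type and knockout (SD, n = 5 each) and a log2 fold change of 0.32 ± 0.27 (SE, limma adjusted p = 0.723). Lyz1 went from 2529 ± 927 to 2798 ± 377 per M (log2 fold change 0.20 ± 0.17, limma adjusted p = 0.728) and Lyz2 from 37111 ± 3723 to 32624 ± 4019 (-0.19 ± 0.16, limma adjusted p = 0.730). For Chil1, at 6216 ± 1249 and 6238 ± 730 per M, the 95% interval of the log2 fold change was -0.25 to 0.29. For Il33, at 495 ± 29.0 and 463 ± 54.7, it was -0.27 to 0.06, and for Cxcl15, at 10002 ± 1131 and 9175 ± 563, -0.36 to 0.12. Lcn2 (707 ± 337 and 734 ± 188.2 per M) and Slpi (42.5 ± 22.2 and 36.5 ± 9.17) had the wide intervals of -0.34 to 0.58 and -0.62 to 0.36. In none of the 8 genes were the label groups apart, where 0.958% of all genes had every knockout library higher and 0.633% every one lower.

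Without wild type 2 and knockout 1, a choice made after seeing the data, 4 libraries stood against 4, in which 2 of the 8 genes passed, both higher in knockout. The females left, knockout 2 and 3, were both knockouts, and wild type 3 to 6 were all male, so that label and sex were confounded in part. With sex as a covariate the label difference rested on knockout 4 and 5 against wild type 3 to 6. Over all genes 52 of 12946 passed (0.402%), 37 of them higher (0.286%). Lgals3bp stood at 37.9 ± 4.73 in wild type and 67.6 ± 19.3 per M in knockout (SD, n = 4 each), a log2 fold change of 0.79 ± 0.16 (SE, limma adjusted p = 0.0371). Its call was lost with sex as a covariate (log2 fold change 0.44, limma adjusted p = 0.243) and without any 1 of wild type 3, 4 or 5 or knockout 2, 3 or 5 (0.0533 to 0.144), although the log2 fold change was then still 0.65 to 0.85. Lyz1 stood at 2125 ± 241 and 2927 ± 280 per M, a log2 fold change of 0.46 ± 0.10 (SE, limma adjusted p = 0.0488). The size of this difference was 0.39 to 0.52 without any 1 further library and 0.54 with sex as a covariate, but it lay at the threshold. The adjusted p was 0.0503 with median-ratio factors, 0.0509 with TMM factors, 0.0514 with a pseudocount of 0.1, 0.0874 with sex as a covariate, and 0.0711 to 0.147 without any 1 further library other than wild type 6.

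The other 6 genes did not pass in these 8 libraries. Lcn2 stood at 558 ± 71.9 and 778 ± 185 per M (SD, n = 4 each), a log2 fold change of 0.46 ± 0.14 (SE, limma adjusted p = 0.178), and passed only without knockout 4 (0.60, limma adjusted p = 0.0289). With sex as a covariate its difference was 0.19 (limma adjusted p = 0.578). The 95% interval was -0.14 to 0.53 for Slpi, -0.08 to 0.37 for Chil1, -0.34 to 0.10 for Cxcl15, -0.52 to 0.06 for Lyz2 and -0.33 to -0.01 for Il33. For Lyz1 and Lgals3bp every knockout library lay above every wild type library, as did 3.85% of all genes, and for Lyz2 every knockout library lay below, as did 2.87%.

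The second run holds neither of the 2 libraries and only males, and gives the same comparison with 3 wild type and 2 knockout libraries. There 41 genes passed (0.317%), none of the 8 among them. Lyz1 had a log2 fold change of 0.46 ± 0.11 (SE, limma adjusted p = 0.144), Lgals3bp of 0.41 ± 0.14 (limma adjusted p = 0.350) and Il33 of -0.20 ± 0.09 (limma adjusted p = 0.488). Lcn2 was at 0.21 ± 0.13 and Slpi at -0.09. Lyz1 and Lgals3bp lay above all wild type libraries in both knockouts, and Lyz2 and Il33 below, where 14.8% and 12.6% of all genes did so. Within the first run as labelled, the log2 fold change was -0.07 for Lyz1 and 0.06 for Lgals3bp.

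**Figure D3:**
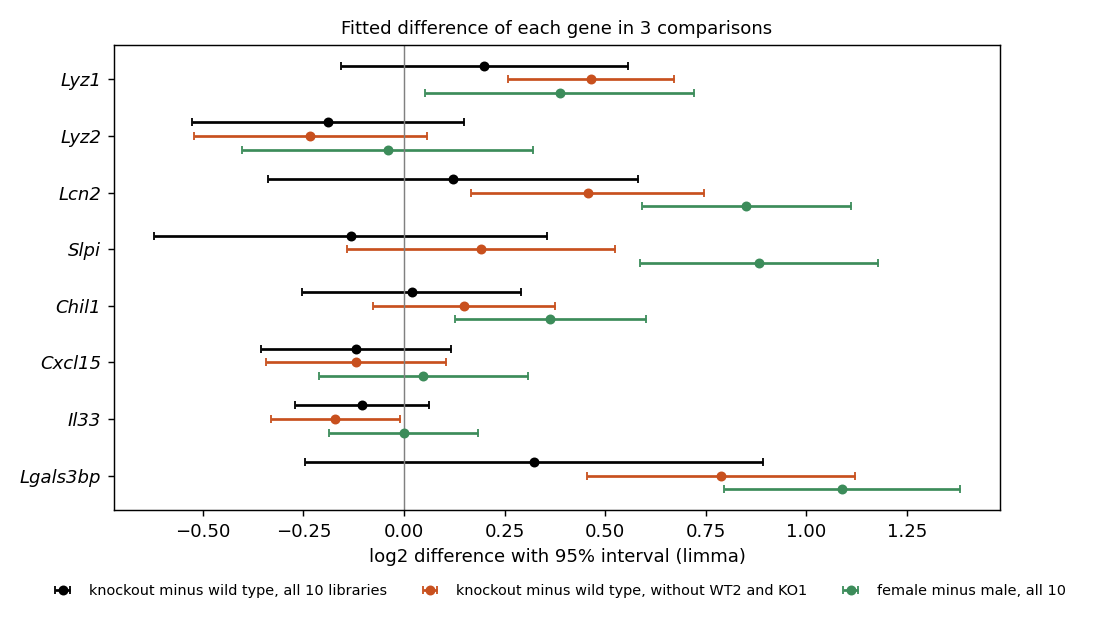
Fitted log2 differences (horizontal axis) of the 8 genes with their 95% intervals from limma, for knockout minus wild type with all 10 libraries, the same without wild type 2 and knockout 1, and female minus male. With all 10 libraries each knockout interval spans 0, and the female intervals of Lcn2, Slpi and Lgals3bp lie above 0.5.

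The spread within the label groups followed the sex of the mice for a part of the set. This comparison was added after the data were seen, in a fit with the genotype label as a covariate. Lcn2, Slpi and Lgals3bp were higher in the 3 female than in the 7 male libraries, 3 of the 8 genes, where 0.626% of all genes were higher (81 of 12946, and 0.803% in either direction). Lgals3bp stood at 89.0 ± 10.7 per M in females and 41.3 ± 8.66 in males (SD, n = 3 and 7), a log2 difference of 1.09 ± 0.14 (SE, limma adjusted p = 0.000391). Lcn2 stood at 1047 ± 230 and 580 ± 74.9 per M (0.85 ± 0.12, limma adjusted p = 0.00153) and Slpi at 57.7 ± 20.6 and 31.7 ± 4.65 (0.88 ± 0.14, limma adjusted p = 0.00264). In all 3 genes, and in Chil1, every female library lay above every male library, as did 2.03% of all genes, and none of the 8 genes lay below in every female, as 1.68% did. Chil1, at 7361 ± 1037 and 5741 ± 344 per M, did not pass (0.36 ± 0.11, limma adjusted p = 0.180). Il33 (log2 difference 0.00, 95% interval -0.19 to 0.19), Cxcl15 (-0.21 to 0.31) and Lyz2 (-0.40 to 0.32) had intervals on both sides of 0, and Lyz1 had 0.39 ± 0.16 (limma adjusted p = 0.361).

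These calls leaned on wild type 2. Without it Lgals3bp still passed (0.88, limma adjusted p = 0.0351), while Lcn2 (0.60, limma adjusted p = 0.0970) and Slpi (0.60, limma adjusted p = 0.220) did not, and the number of genes passing fell to 24. Without knockout 1 as well, none of the 3 passed (limma adjusted p of 0.103 for Lgals3bp, 0.224 for Lcn2 and 0.305 for Slpi) and 11 genes did. With wild type 2 out, all wild types were male, and the sex difference rested on the knockouts alone. With knockout 1 out too, it set knockout 2 and 3 of the first run against knockout 4 and 5 of the second. Sex and run could not be told apart there. Without knockout 2 the count was 62, and without wild type 3 it was 173. With the run as a covariate all 3 passed, at log2 differences of 1.32, 0.87 and 0.85 for Lgals3bp, Lcn2 and Slpi (limma adjusted p of 0.000214, 0.0110 and 0.0404). All females were of the first run and all had low Rbck1 (29.7 to 36.4 per M), so that sex, run and Rbck1 level can be told apart only in part. Macrophage markers summed to 42.4 to 43.5 per M in females and 20.9 to 39.4 in males, of which wild type 3, from the first run, was the highest. Of the 5 macrophage markers tested, 5 had log2 differences above 0 (median 1.56) and none was called. The part of these markers in the differences of Lgals3bp, Lcn2 and Slpi was not tested. Club markers, at 4915 to 9551 in females and 5134 to 9638 in males, overlapped, with 5 of 6 log2 differences above 0 and none called. Ciliated cell markers were at 173 to 209 per M in females and 196 to 302 in males, with 4 of 4 below 0 (median -0.43) and none called.

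**Figure D4:**
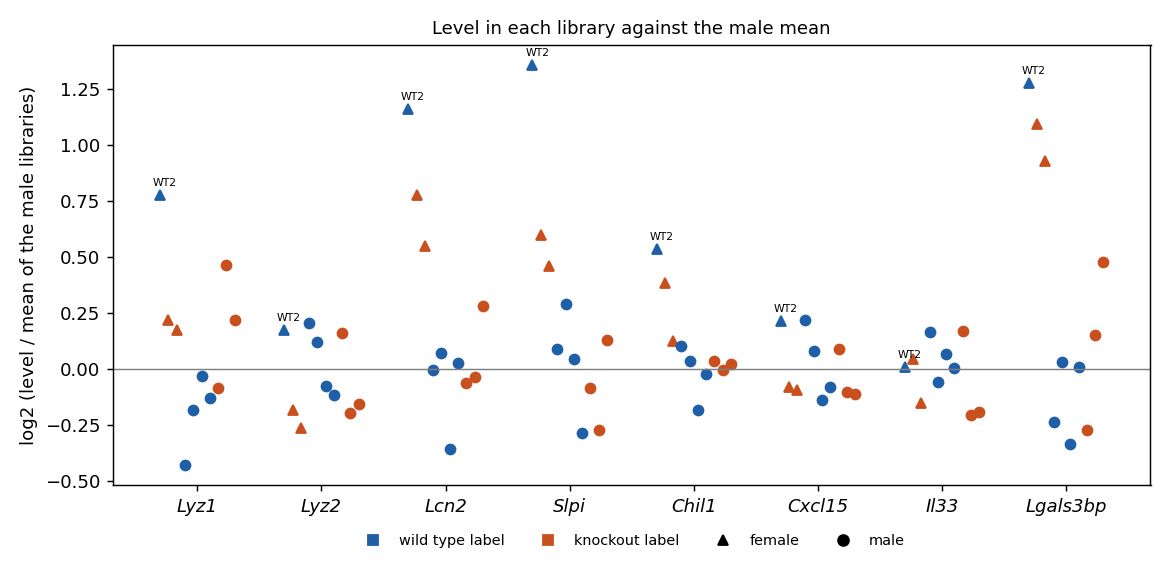
Log2 ratio of the level in each library to the mean of the 7 male libraries (vertical axis) for the 8 genes, with triangles for females and colours for labels, females to the left within each gene. For Lcn2, Slpi, Chil1 and Lgals3bp the 3 females lie above all males, and wild type 2 is the highest of them.

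No gene of the set passed between the 2 runs of mouse numbers. With genotype as a covariate all 8 log2 differences, second minus first run, were at or below 0, from -0.02 for Lyz1 to -0.55 ± 0.19 (SE) for Slpi (limma adjusted p = 0.185), beside a median of -0.004 over all genes, 81 of which passed (0.626%). With sex as a further covariate the 8 differences no longer had a common direction. Those of Lcn2, Lgals3bp and Lyz1 were above 0, at 0.025, 0.33 and 0.34. The others were -0.05 for Slpi, -0.11 for Chil1, -0.24 for Cxcl15, -0.26 for Il33 and -0.29 for Lyz2. Of the 5 macrophage markers tested 3 were lower in the second run, Mrc1, Itgax and Laptm5, and of 4 ciliated cell markers 3 were higher, Foxj1, Tppp3 and Ccdc153 (median of the 4 log2 differences 0.52). Chil3, a relative of Chil1 that macrophages make, and the chemokine Ccl6 were lower as well, both named after their values were seen: Chil3 stood at 12.9 to 22.6 per M in the first run and 0.799 to 2.995 in the second, and Ccl6 at 2.71 to 5.92 and 0.282 to 1.05. The part of such cells in the levels of the 8 genes was not tested.

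Lcn2, Slpi, Chil1 and Lgals3bp varied together over the libraries, with Pearson's r of 0.802 to 0.957 between them, and the sequence before their start sites was searched for motifs of factors known for defence genes in all 8. The motifs were the ISRE, the shorter IRF motif (AANNGAAA, which every ISRE contains), a STAT motif (TTCNNNGAA), a C/EBP motif (TTGCNNAA) and the NF-kB motif, on both strands of the 250 bases before each RefSeq start. Capitals mark the matches, and the windows of these 4 genes are, in GRCm38.p6, chr1:134181906-134182155 (plus strand) for Chil1 and, on the minus strand, chr2:32387740-32387989 for Lcn2, chr2:164356508-164356757 for Slpi and chr11:118401960-118402209 for Lgals3bp.
Lcn2: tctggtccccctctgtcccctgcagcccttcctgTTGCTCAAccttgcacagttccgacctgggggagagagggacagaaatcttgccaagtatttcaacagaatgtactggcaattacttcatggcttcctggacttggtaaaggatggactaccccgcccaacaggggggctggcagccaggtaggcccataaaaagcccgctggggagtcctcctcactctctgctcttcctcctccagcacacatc
Slpi: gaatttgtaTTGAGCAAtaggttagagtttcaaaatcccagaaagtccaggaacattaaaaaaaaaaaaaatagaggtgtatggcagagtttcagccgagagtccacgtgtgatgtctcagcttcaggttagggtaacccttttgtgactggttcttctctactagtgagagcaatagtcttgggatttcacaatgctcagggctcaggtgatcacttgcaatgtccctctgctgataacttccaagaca
Chil1: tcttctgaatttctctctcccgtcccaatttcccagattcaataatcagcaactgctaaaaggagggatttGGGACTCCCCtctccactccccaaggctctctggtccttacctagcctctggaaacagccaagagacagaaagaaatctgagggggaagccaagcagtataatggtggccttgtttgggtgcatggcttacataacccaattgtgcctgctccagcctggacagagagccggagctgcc
Lgals3bp: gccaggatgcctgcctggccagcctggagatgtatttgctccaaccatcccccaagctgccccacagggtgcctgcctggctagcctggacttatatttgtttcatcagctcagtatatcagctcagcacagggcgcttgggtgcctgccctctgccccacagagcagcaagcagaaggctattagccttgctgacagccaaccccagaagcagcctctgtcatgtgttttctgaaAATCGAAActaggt
Lcn2 and Slpi held 1 C/EBP match each, which 9.56% of 32851 windows have, and Lgals3bp held 1 IRF match, beginning 14 bases before its start, which 21.3% have. Chil1 held 1 NF-kB match, which 3.9% have. Of the other 4 genes, Lyz1 held a C/EBP match and Cxcl15 an IRF match. Il33 has more than 1 window. That at chr19:29924863-29925112 (plus strand) held an IRF match, and that at chr19:29945540-29945789, wholly inside its gene, a C/EBP match. Neither motif was therefore limited to the genes that varied together. No ISRE (2.98% of windows) or STAT match (7.02%) was found before any of the 8. A match describes the letters and not a bound site. RefSeq starts can also lie inside the GENCODE genes given above. The windows of Lcn2 and Slpi lie wholly within their genes, and that of Lgals3bp in part, with its IRF match inside.

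The likeness of the patterns was also measured by Pearson's r of log2 values over the 10 libraries, which share their depth and sex differences. Within the set, r was 0.96 between Lcn2 and Lgals3bp, 0.945 between Lcn2 and Chil1, 0.885 between Lcn2 and Slpi and 0.915 between Lyz2 and Cxcl15. The 2 lysozymes had an r of -0.27. Among 9619 other genes at 5 per M or more, those most like Lgals3bp were the MHC class I genes H2-D1 (0.99) and H2-K1 (0.98) and the restriction factor Bst2 (0.96). For Lcn2 they were Tmc4 (0.97), Tap1, a subunit of the peptide transporter (0.97), and the class I gene H2-T23 (0.96). For Slpi they were Cyba, a subunit of NADPH oxidase (0.95), the interferon-induced GTPase Ifi47 (0.95) and H2-T23 (0.94). Chil1 was most like Tmem176a (0.97), the lipopolysaccharide-binding protein gene Lbp (0.96) and Tapbp (0.95), and Lyz1 was most like Efs (0.95), Fcho2 (0.91) and Ttc23 (0.90). Lyz2 was followed by Mrpl13 (0.97), Ybx1 (0.96) and Arf5 (0.95), Cxcl15 by Ybx1 (0.97), Eci1 (0.96) and Atp5b (0.95), and Il33 by Azi2 (0.95), Narf (0.94) and Bub3 (0.93). H2 genes are related in sequence, and whether reads were shared between them was not tested.

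Other secreted defence genes were tested in the same fits. Of 23 further antimicrobial and collectin genes 16 were tested, and 0 passed in knockout against wild type with all libraries or without wild type 2 and knockout 1 (medians of 0.07 and 0.07 on the log2 scale, beside -0.04 and 0.17 for the 8 genes and 0.01 and 0.00 over all genes). Sftpa1, the collectin surfactant protein A, stood at 19788 ± 1695 and 18628 ± 997 per M in wild type and knockout (SD, n = 5 each), and Scgb1a1, the club cell secretory protein, at 5185 ± 1711 and 5398 ± 1353. Ltf, the iron-binding lactotransferrin, had the smallest p of this list, at 9.33 ± 3.90 and 20.5 ± 14.5 per M (log2 fold change 0.92 ± 0.35 SE, limma adjusted p = 0.433), and Lrg1 was at -0.32 ± 0.14. Between the sexes 3 of the 16 passed as higher in females, where 0.626% of all genes did. All 16 lay above 0, where 48.3% of all genes did, with a median of 0.35 beside -0.01 over all genes. These 3, named after their values were seen, were the bactericidal lectin Reg3g (56.6 ± 20.5 and 22.8 ± 8.41 per M in females and males, SD, n = 3 and 7), the peptidoglycan recognition protein Pglyrp1 (12.6 ± 4.06 and 5.61 ± 1.67) and Pigr, which carries immunoglobulin A into secretions (100.9 ± 49.0 and 38.4 ± 9.92). For Reg3g the sexes overlapped, with wild type 2 at 34.4 and the male wild type 4 at 34.7 per M. Pglyrp1 was at 9.92 in wild type 2 and 9.06 in the male knockout 5, and Pigr at 64.8 and 49.1. How these 3 calls depend on single libraries was not examined.

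Of 25 other cytokines and chemokines 8 were tested, 0 passed in either knockout comparison or between the sexes, and 8 of 8 lay above 0 in females, where 48.3% of all genes did. The chemokine Cxcl16 (54.1 ± 11.9 and 57.3 ± 4.39 per M in wild type and knockout, SD, n = 5 each) and the macrophage growth factor Il34 (38.7 ± 3.01 and 39.4 ± 2.43) were the most abundant of them, far below Cxcl15. Of 25 relatives, receptors and partners of the set 13 were tested, and 0 passed in these 3 comparisons. The chitinase Chia1 stood at 386 ± 65.0 and 382 ± 56.9 per M. Lrp2, or megalin, a receptor for lipocalins, had the smallest p, at 565 ± 67.9 and 718 ± 71.6 (log2 fold change 0.35 ± 0.09 SE, limma adjusted p = 0.314). Lgals3, galectin 3, a partner of Lgals3bp, was at 41.4 ± 4.91 and 32.1 ± 6.65 (-0.38 ± 0.12, limma adjusted p = 0.359). The IL-33 receptor Il1rl1 stood at 0 to 0.387 per M.

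All 19 transcription factors and feedback genes of the defence response were tested, and 0 passed in either knockout comparison. Cebpa was at 744 ± 44.1 and 787 ± 51.7 per M in wild type and knockout (SD, n = 5 each), Stat3 at 268 ± 25.02 and 267 ± 6.45, Nfkb1 at 86.8 ± 3.82 and 92.7 ± 5.10, and the NF-kB feedback gene Tnfaip3 at 12.3 ± 1.69 and 15.5 ± 4.04. In females 2 of the 19 were higher, where 0.626% of all genes were, again named after their values were seen. They were Irf9, a subunit of the interferon-activated factor ISGF3, at 36.2 ± 1.22 and 23.7 ± 1.92 per M in females and males (SD, n = 3 and 7, log2 difference 0.59 ± 0.10 SE, limma adjusted p = 0.00312), and Irf7 at 7.88 ± 1.08 and 3.86 ± 0.911 (0.97 ± 0.20, limma adjusted p = 0.0213).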

How the data were processed

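Normalized RNA-seq counts per Ensembl gene were used in 10 libraries, 5 per label group. The authors deposited 1 table of a signal that is never negative and that its name calls normalized counts; per the submitters' processing notes bcl2fastq 2.17, edgeR 3.14.0 and build mm10 were used, while aligner, annotation, strand setting and the kind of normalization have no statement in the sources used here. Column totals were 6.94 to 7.43 M. Low values fell in clusters with a width of their own, so that whole reads could not be recovered and count models were not used. Depth was read as the total over the median of the lowest cluster. Symbols matched 16026 of 16154 identifiers, and coordinates and exon lengths are those of GENCODE M21 (mm10).

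Values were divided by 7.14 M. The 12946 genes reaching 1 per M in 5 or more libraries were tested with limma-trend 3.58.1 in R 4.3.3 on log2(value per M + 0.5), two-sided, with Benjamini-Hochberg adjustment over all of them. Fold changes are on that log2 scale, so changes of low genes are understated. P-values measure the spread between these libraries. Alternatives were other pseudocounts (0.1, 2), dropping the filter or raising it to 5 per M, TMM, median-ratio and equal-total scaling, the run or sex as a covariate, the replicate number as a block, each run alone and leaving out libraries. The test was checked on simulated data for 12946 genes: 1.5-fold changes were recovered in 80.6% of cases with 10 libraries and in 61.2% with 8. Beside counting noise, every simulated gene had the same spread, the median over genes within wild type. These percentages therefore do not hold for genes that vary more. Lgals3bp, Slpi and Lcn2 had SEs of 0.27, 0.23 and 0.22 in knockout minus wild type with all 10 libraries.

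The 8 genes and the gene lists were chosen with earlier results of these data known. Genes named are the 8, Rbck1, the 3 genes most correlated with each, and from each list of related genes the 2 most abundant and the 2 with the smallest p, other names being marked. No 2 libraries held identical values. Promoter windows are RefSeq's (GRCm38.p6).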

Additional observations from a re-analysis of the deposited data

Results flagged for a closer look

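In each label group of 5 libraries the gap between the highest or lowest library and its neighbour was compared with the group's range, by Dixon's criterion. Over 46 such groups, 16 of them of the 8 genes, 8 were flagged, and chance alone flags about 1 in 20. The 46 groups are those of the genes named here, some of which vary together, so that they are not independent. Over all 12946 genes tested 5.37% of wild type and 5.14% of knockout groups met the criterion, with wild type 2 as the high library in 1.57% and knockout 1 in 0.996%. Wild type 2 stood apart in 4 of the 8 genes, as the highest of its group: Lyz1 at 4144 per M (next 2367), Lcn2 at 1299 (next 610.6), Slpi at 81.4 (next 38.8) and Lgals3bp at 100.1 (next 42.2). In the same library Rbck1 was the lowest of its group, at 29.7 (next 56.1). Knockout 1 stood apart in 2 genes, as the highest of its group: Lyz2 at 39659 (next 31783) and Cxcl15 at 10174 (next 9028). Lgals3 was highest in wild type 4, at 50.1 per M (next 40.0).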

How the results depend on the processing

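For knockout minus wild type as labelled, the count stayed 0 under every scaling, pseudocount and filter tried, within the first run, and with sex in the model. It was 1 with the run as a covariate, 41 in the second run alone, 52 without the 2 libraries, and 0 to 4 without any 1 library (4 without knockout 1). Whether the replicate numbers pair the mice is not stated by the labels and was not settled. The deviations of same-numbered libraries had correlations of 0.31, 0.03, 0.10 and 0.08, and those of differently numbered ones -0.27 to 0.27. With the replicate number as a block, over the 4 numbers that both groups share, 259 genes passed, and 22 passed in the same 8 libraries without the block, none of the 8 genes in either. Signs changed in some settings for Lyz1, Lcn2, Slpi and Chil1, whose log2 fold changes with all 10 libraries were 0.20, 0.12, -0.13 and 0.02. With sex as a covariate Lcn2 was at -0.049 and Chil1 at -0.054, and with the run as a covariate Chil1 was at -0.036. In the first run alone Lyz1 was at -0.07, Lcn2 at -0.16 and Chil1 at -0.14. Slpi was at 0.19 without the 2 libraries. Without any 1 library the ranges were -0.014 to 0.366 for Lcn2, -0.28 to 0.13 for Slpi and -0.051 to 0.13 for Chil1. Without the 2 libraries the count of 52 was 27 with sex as a covariate, where Slpi was at -0.10, and 19 to 100 without any 1 further library (19 without wild type 5, 26 without wild type 4, 32 without knockout 3, 84 without knockout 4, 100 without wild type 6). Between the runs the count of 81 was 44 with sex as a covariate, where Lyz1 was at 0.34, Lcn2 at 0.025 and Lgals3bp at 0.33, and 28 without the 2 libraries, where Lyz1 was at 0.22. Without any 1 library it was 18 to 139 (18 without wild type 2, 23 without wild type 5, 28 without wild type 6, 43 without knockout 4, 44 without wild type 3, 139 without knockout 1), and Lyz1 lay between -0.20 and 0.27. Between the sexes the count of 104 was 11 without the 2 libraries, where Lyz1 was at -0.14 and Il33 at 0.15. The difference then rested on knockout 2 and 3 against knockout 4 and 5. The count was 24 to 173 without any 1 library. There Lyz1 lay between -0.002 and 0.511, Lyz2 between -0.16 and 0.036, Cxcl15 between -0.047 and 0.096 and Il33 between -0.055 and 0.065. Il33 was at 0.008 with TMM factors and at 0.006 with median-ratio factors, and Cxcl15 at -0.12 with the run as a covariate. The causes of these changes were not tested. Depth limits the low marker genes more than the 8 genes, whose lowest value was 26.0 per M.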
